A study of Mus musculus with 56 samples.

Results

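The 34 genes described here are mouse interferon-stimulated genes, taken by symbol from the deposited tables, which together hold 30647 distinct gene symbols. All 34 were found in the bulk count table and in the FPKM files, and 33 in the single-cell matrix, where Mx2 had no row. Interferons are cytokines that cells release on sensing viral nucleic acid. Type I interferons bind the receptor chains IFNAR1 and IFNAR2, and the kinases JAK1 and TYK2 then act on transcription factors such as STAT2. STAT2 and IRF9 are parts of the complex ISGF3, which binds the interferon-stimulated response element in the promoters of such genes, while the gamma-activated site is known from genes induced by interferon gamma. In the brain, microglia, the resident macrophages, are among the cells known to make and answer type I interferon.

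The series holds 56 samples of mouse microglia or of cortical cells sorted for them, and no label names an interferon treatment. Cultured microglia were wild type and B6, from pups of postnatal day 5 to 8, and 7 libraries had IL-33 at 200 ng/ml for 3 h while 7 had medium. IL-33 is a cytokine that acts through the receptor ST2, encoded by Il1rl1. The culture protocol also names a GSK-J4 pretreatment without saying which cultures received it, and the medium held the growth factor M-CSF and serum. Sorted microglia came from cortex of carriers of the Mapt-EGFP knock-in, B6/129, as 8 Tau-GFP plus and 8 Tau-GFP negative libraries. Here neurons make GFP from the Mapt (tau) locus, and both sorted groups carry the allele. Their labels say postnatal day 10 and the design text day 9. TMRM is a dye that gathers in charged mitochondria, and 10 TMRM high and 8 TMRM low libraries were sorted from P9 cortex of mice labelled B6/C57, with no genotype in the labels. Droplet single-cell libraries, 2 a group, came from B6 cortex: wild type at P28, wild type at P9, ST2 KO at P9 and ST2 Het at P9, with heterozygous mice as the littermate controls. The labels do not say which libraries came from separate animals or pools, so the p-values measure the spread between these libraries, which may be technical.

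The members were ordered by what their proteins do. The sensors are Ddx58 (RIG-I), Ifih1 (MDA5), Dhx58 (LGP2), Zbp1 and the kinase Eif2ak2 (PKR). Irf1, Irf7, Irf9 and Stat2 are transcription factors of the pathway. The IFIT proteins bind foreign RNA, and the OAS group (Oas1a, Oas2, Oas3, Oasl1, Oasl2) makes or relates to the enzymes that make 2-5A, the activator of RNase L. Ifitm2 and Ifitm3 block virus entry at membranes, Bst2 (tetherin) holds budding virions, and Mx1 and Mx2 are GTPases. Rsad2 (viperin) makes an antiviral nucleotide from CTP, Cmpk2 is a mitochondrial nucleotide kinase and Isg20 is an exonuclease. Isg15 is a ubiquitin-like modifier that Usp18 removes, and Usp18 also brakes the type I receptor. Ifi27l2a, Ifi35, Ifi44, Xaf1, Rtp4, Parp14 and Trim30a are further induced genes.

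Promoter sequences were matched for 25 members as 31 windows of 300 bases, from 250 before to 50 after an annotated start (RefSeq, GRCm38.p6). The core of the interferon-stimulated response element, searched on both strands as a pair of TTTC, or on the other strand GAAA, with 2 bases of any kind between them (overlapping matches counted), lay in 14 of the 25 members (56%), against 1079 of 27025 genes with a window (3.99%). Windows with 2 or more cores belonged to 6 members (24%), against 72 of all genes (0.266%). The gamma-activated site, TTCNNNGAA, which reads the same on both strands, was in 8 members (32%), against 9.55% of all genes, and the kB motif in 3 (12%), against 5.14%. A match describes letters and is not a binding site. The windows of 7 members are shown because the results below turn on these genes. In the first 6 the capitals mark the response element cores, and in Irf1, which had none of these cores in its windows, they mark a gamma-activated site and a kB motif. Ifit1 (chr19:34640639-34640938, plus strand) had cores centred 100 and 80 bases before the start, and Ifit3 (chr19:34583279-34583578, plus strand) had them 152 and 118 bases before it. Isg15 (chr4:156200769-156201068, minus strand) had 3 overlapping cores between 74 and 62 bases before the start. Rsad2 (chr12:26456403-26456702, minus strand) and Ifitm2 (chr7:140955912-140956211, minus strand) had 1 each, at 116 and at 42 bases before the start. In Ifitm3 (chr7:141010695-141010994, minus strand) both cores lay after the start, at 6 and 24 bases. Irf1 is at chr11:53769764-53770063 on the plus strand.
Ifit1: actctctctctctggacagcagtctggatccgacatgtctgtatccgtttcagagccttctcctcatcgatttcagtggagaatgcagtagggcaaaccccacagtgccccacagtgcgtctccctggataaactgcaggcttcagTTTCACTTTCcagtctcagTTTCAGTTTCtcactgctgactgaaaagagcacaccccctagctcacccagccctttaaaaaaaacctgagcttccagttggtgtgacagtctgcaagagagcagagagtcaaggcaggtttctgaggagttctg
Ifit3: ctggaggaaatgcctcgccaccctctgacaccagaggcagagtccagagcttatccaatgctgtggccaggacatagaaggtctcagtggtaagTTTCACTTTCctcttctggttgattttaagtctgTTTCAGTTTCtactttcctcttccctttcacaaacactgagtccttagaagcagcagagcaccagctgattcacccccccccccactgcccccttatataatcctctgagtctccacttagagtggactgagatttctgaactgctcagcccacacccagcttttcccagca
Isg15: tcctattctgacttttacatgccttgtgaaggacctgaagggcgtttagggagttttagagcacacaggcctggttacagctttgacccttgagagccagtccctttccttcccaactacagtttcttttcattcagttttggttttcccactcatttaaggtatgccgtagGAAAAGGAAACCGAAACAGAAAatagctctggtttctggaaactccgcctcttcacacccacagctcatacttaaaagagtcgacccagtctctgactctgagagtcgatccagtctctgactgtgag
Rsad2: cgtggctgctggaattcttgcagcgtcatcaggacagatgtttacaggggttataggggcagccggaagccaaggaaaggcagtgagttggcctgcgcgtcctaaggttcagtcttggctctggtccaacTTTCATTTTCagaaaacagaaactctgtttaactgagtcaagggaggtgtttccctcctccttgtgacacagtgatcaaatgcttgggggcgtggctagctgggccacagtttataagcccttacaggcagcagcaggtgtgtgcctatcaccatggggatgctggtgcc
Ifitm2: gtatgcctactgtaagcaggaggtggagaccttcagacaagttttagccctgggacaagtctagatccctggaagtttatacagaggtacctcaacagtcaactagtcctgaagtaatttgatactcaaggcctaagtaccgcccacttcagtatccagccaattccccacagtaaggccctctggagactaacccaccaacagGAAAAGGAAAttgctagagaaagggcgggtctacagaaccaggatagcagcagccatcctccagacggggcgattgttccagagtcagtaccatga
Ifitm3: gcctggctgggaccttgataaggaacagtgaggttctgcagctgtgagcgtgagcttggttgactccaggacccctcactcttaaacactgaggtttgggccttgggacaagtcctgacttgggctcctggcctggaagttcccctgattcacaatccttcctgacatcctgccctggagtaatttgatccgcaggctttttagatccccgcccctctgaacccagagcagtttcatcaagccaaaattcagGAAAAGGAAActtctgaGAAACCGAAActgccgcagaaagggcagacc
Irf1: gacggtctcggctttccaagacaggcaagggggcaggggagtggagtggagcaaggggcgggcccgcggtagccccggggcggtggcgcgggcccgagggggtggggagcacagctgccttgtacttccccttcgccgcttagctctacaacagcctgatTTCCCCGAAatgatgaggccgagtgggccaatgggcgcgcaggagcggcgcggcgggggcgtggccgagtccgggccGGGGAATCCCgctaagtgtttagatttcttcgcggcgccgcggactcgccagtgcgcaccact

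Of the 34 members, 31 passed an adjusted p of 0.05 in at least 1 of 5 comparisons. The exceptions were Zbp1 and Oas3, and Ifi44, which was too low to be tested in any of them. How many of all genes passed in at least 1 comparison was not counted. In P28 against P9 alone, 27.6% of all genes tested were called higher and 26.2% lower, so the 31 are not read as a trait of the list. Within 1 comparison members went both ways, with 8 called higher and 5 lower in Tau-GFP plus cells. In TMRM high cells 10 were called higher and 5 lower. The shares of all genes are given with each comparison below. Between comparisons, 9 members were called higher in one and lower in another. How many of all genes did so was not counted either, so the 9 are not read as a trait of the list. Ifitm2, for example, was higher in Tau-GFP plus than in Tau-GFP negative cells and lower at P28 than at P9. Bulk counts are given as CPM (counts scaled to a fixed library total) after TMM scaling, single-cell counts as CPM of unique molecular identifiers (UMIs) summed per library over microglia-like cells, and TMRM libraries as FPKM. Fold changes are on the log2 scale with their standard error. Near-identical copies, such as Ifit3b beside Ifit3 or Ifitm2 beside Ifitm3, can share reads, so the split between such copies is uncertain.

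**Figure D1:**
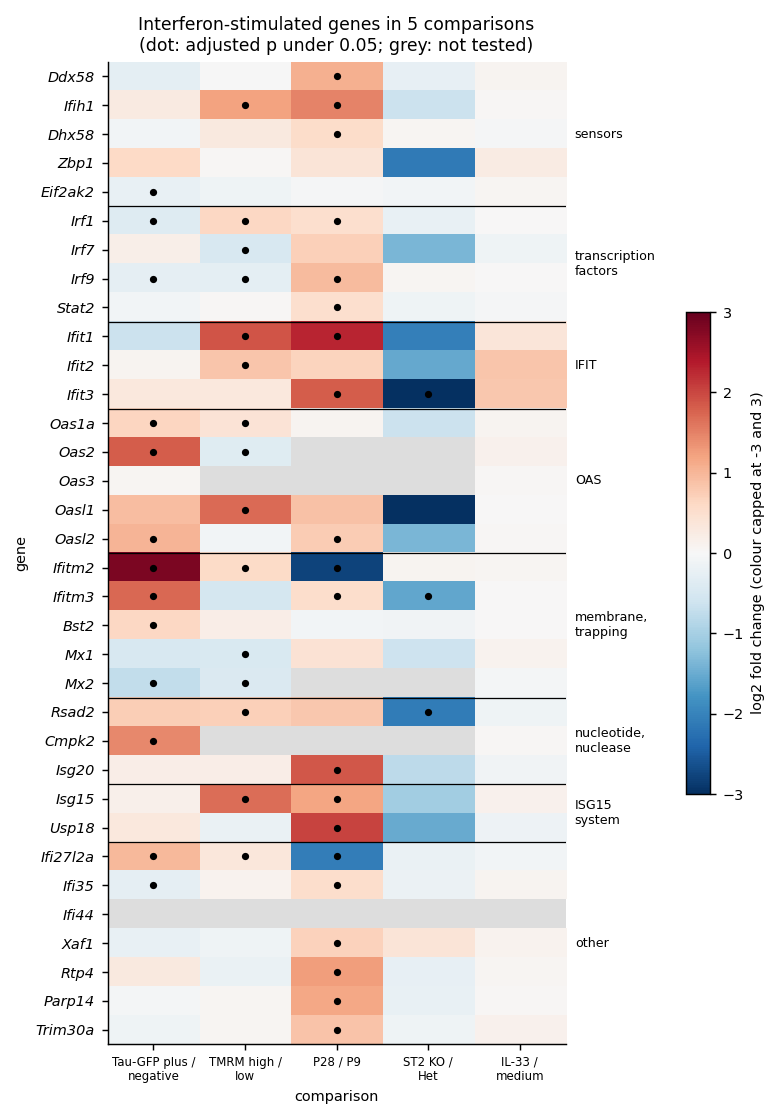
Log2 fold change of each of the 34 interferon-stimulated genes (rows, grouped by role) in 5 comparisons (columns). Colour runs from lower (blue) to higher (red) in the group named first, dots mark an adjusted p under 0.05, grey means not tested. Of the 5 columns, P28 against P9 has the most dots (18 higher, 2 lower), and the IL-33 column has none.

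Depth differed by assay. Bulk count libraries held 7709047 to 11826389 expected counts, the single-cell libraries had a median of 2244 to 5936 UMIs per cell, and the depth of the FPKM files is unknown. In single cells, 14394 of 15335 cells kept fell in 13 microglia-like clusters. Between 14 and 56 barcodes of each library recurred in another one. Among microglia-like clusters, 2 had the astrocyte-list gene Slc1a3 and 1 the B-cell gene Cd79b among their 10 leading genes, and no gene of the microglia list there, so counts over all cells kept are given beside the main ones. In bulk libraries, fewer cells of a type and less RNA per cell cannot be told apart.

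Transcripts of the members lay partly in the same microglia. Each microglia-like cell was thinned to 1000 UMIs, and for each gene the cells holding 2 or more UMIs of members of the other roles were set beside the remaining cells, over all 8 libraries together. Ifit3 had 81.2% of its UMIs in the 14.7% of cells picked this way, and its UMIs per cell were 24.9 times those of the remaining cells. Usp18 stood at 17.9 times, Ifit1 at 14, Ifitm3 at 11.7, Irf7 at 11.1 and Oasl2 at 10.7. At the other end, Ifitm2 had 1.16 times, Eif2ak2 1.33, Irf1 1.40, Irf9 1.41, Ddx58 1.45 and Ifi35 1.81. Of 23 genes with at least 50 thinned UMIs, 6 were above 10 and 6 below 2. Of the 58 thinned UMIs of Ifit1, 70.7% lay in the 14.7% of cells picked for it. Of the 367 of Ifitm2, 9.54% lay in the 8.37% of cells picked for it. The ratio tells how far a gene shares cells with other members, and not how many cells hold it. These ratios pool libraries and are a description, with no test.

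**Figure D2:**
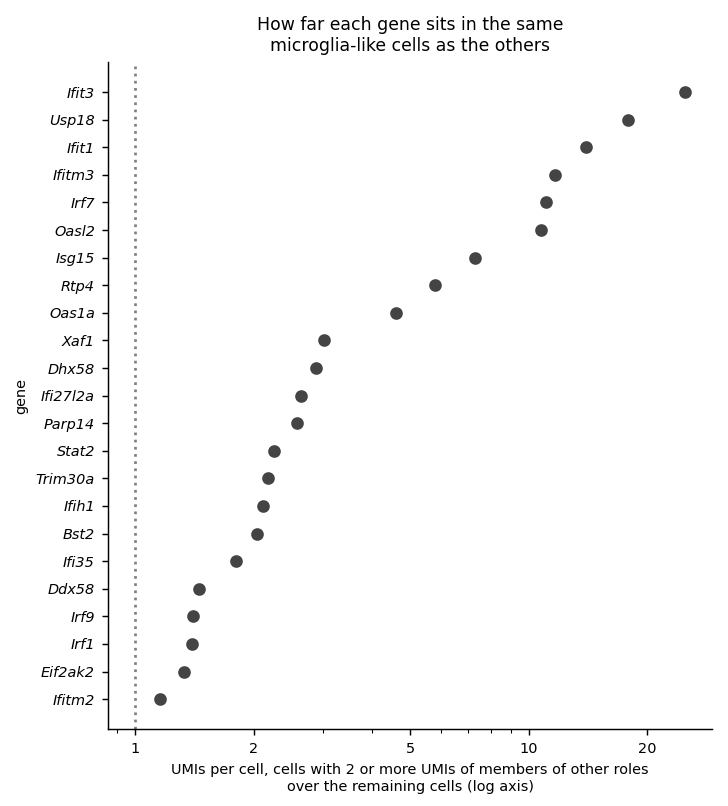
UMIs per microglia-like cell of each gene in cells with 2 or more UMIs of members of other roles, divided by the value in the remaining cells (horizontal log axis, cells thinned to 1000 UMIs, 8 libraries together). Ifit3 stands highest at 24.9 and Ifitm2 lowest at 1.16, close to the dotted line at 1.

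Border-associated macrophages, which lie at the meninges and vessels and also express CD11b, carried more member RNA than microglia. Summed over members they had 2461 ± 344 CPM, against 707 ± 74.8 CPM in microglia-like cells (SD, n = 8 libraries each). Ifitm2 had 585 ± 124 CPM in border-associated macrophages and 30.8 ± 15.4 CPM in microglia-like cells. Ifitm3 had 299 ± 102 and Ifi27l2a 373 ± 130 CPM in border-associated macrophages, against 31.2 ± 13 and 101 ± 44.5 CPM in microglia-like cells. Monocyte-like cells, with 63 cells in 3 libraries, had 9617 ± 4166 CPM of members. Bst2 had 571 ± 94.3 CPM in border-associated macrophages, 138 ± 56.2 CPM in endothelial-like cells (n = 6) and 197 ± 12.7 CPM in microglia-like cells. Cell classes were built from all genes, so these levels are descriptive.

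The comparison of ST2 KO with ST2 Het cortex at P9 asks how microglia change without the IL-33 receptor. Lower in ST2 KO microglia-like cells were 3 members, Ifitm3, Rsad2 and Ifit3. The 3 of 29 members tested that were called lower stand against 0.293% of all 11598 genes tested (edgeR quasi-likelihood test). No member was called higher, against 0.31% of all genes. DESeq2 called 2 members lower and 0 higher. At an unadjusted p of 0.05, 11 members were lower and 1, Xaf1, was higher. Of all 11598 genes, 1152 passed that p in either direction. The median member changed by -0.62, and the median of all genes by -0.0013. Both KO libraries lay below both Het libraries for 18 of 29 members and above them for 1, against 19% and 18.7% of all genes. All cells kept gave the same counts, 3 lower and 0 higher.

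Ifitm3 had 12.1 and 13.7 CPM in the KO libraries (49 and 62 UMIs), against 42.0 and 34.1 CPM in the Het libraries (286 and 240 UMIs). The KO values lay below both Het values, with a fold change of -1.56 ± 0.16 and an edgeR adjusted p of 0.000336. Rsad2 had 2.71 and 1.32 CPM in KO (11 and 6 UMIs), against 9.26 and 7.82 CPM in Het (63 and 55 UMIs). Its fold change was -2.10 ± 0.39 with an edgeR adjusted p of 0.0304. Ifit3 had 0.492 and 0.441 CPM in KO (2 UMIs in each), against 6.02 and 8.39 CPM in Het (41 and 59 UMIs). Its fold change was -3.91 ± 0.74 with an edgeR adjusted p of 0.0333, resting on 4 UMIs in KO. The wild-type P9 libraries, whose titles carry another date-like string, had 29.1 and 31.1 CPM of Ifitm3, between the KO and Het values. Their Rsad2, at 1.17 and 1.83 CPM, overlapped the KO values and lay below both Het values. Ifit3 there was 2.05 and 6.58 CPM, which reached the Het range. KO was not tested against wild type, so lower here means lower than Het. Leaving out 1 library at a time kept Ifitm3 called each time (edgeR adjusted p at most 0.00696). Rsad2 was lost without any one of the 4 libraries (edgeR adjusted p 0.079 to 0.125), and Ifit3 without Het 2, KO 1 or KO 2 (0.105 to 0.282).

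Other members of the same kind missed the threshold in this fit. With replicate number as a block, 8 of 26 members tested were lower and 0 higher, where 85 of all genes were lower and 258 higher. No label pairs the libraries, though the barcode prefixes of KO 1 and Het 1 share the word redo. Ifit1 had 1.48 and 0.662 CPM in KO and 3.70 and 5.14 CPM in Het (-2.06 ± 0.44, edgeR adjusted p = 0.0686). Oasl2 averaged 3.08 ± 1.57 CPM in KO, against 8.08 ± 1.24 CPM in Het, and Isg15 averaged 7.32 ± 0.257 CPM in KO, against 15.2 ± 0.760 CPM in Het (SD, n = 2 each; edgeR adjusted p of 0.0943 and 0.114). Of the 6 genes with a ratio below 2 in the thinned cells above, none was called. With 0.31% of all genes called higher and 0.293% lower, no call is the usual outcome for any 6 genes. Of the 6 genes with a ratio above 10, Ifit3 and Ifitm3 were called. The ratios were taken partly from the cells of these libraries, so this split is no test. Ifitm2 averaged 37.0 ± 3.89 CPM in KO, against 35.0 ± 5.20 CPM in Het, and Irf9 averaged 29.8 ± 4.6 CPM in KO, against 28.6 ± 3.53 CPM in Het. Irf1 changed by -0.23, Ddx58 by -0.26, Ifi35 by -0.18 and Eif2ak2 by -0.09. A miss of the threshold does not show equal levels. Of 68 pathway genes tested, Cxcl10, an interferon-induced chemokine, was the 1 called, at 3.25 ± 0.0774 CPM in KO and 31.8 ± 3.08 CPM in Het (-3.28 ± 0.27, edgeR adjusted p = 5.78e-05).

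One cluster of 190 microglia-like cells was led by members (Ifit3, Isg15, Ifit1, Rsad2, Irf7, Oasl2, Usp18 and Ifitm3 among its 10 leading genes). Its sizes are not compared between genotypes, because the genes that define it are those tested. For the same reason the values without it are a description and no test, since leaving it out removes cells grouped by these transcripts. These were 3 of 1414 microglia-like cells in KO and 35 of 2481 in Het. Without them no member was called (edgeR), and of the 26 tested 1 had an unadjusted p under 0.05. The share of all genes at that p was not counted in this setting. Ifitm3 then changed by -0.31 (edgeR adjusted p = 0.589), Ifit3 by -0.32 (0.940) and Rsad2 by 0.44 (0.873), and the median member by -0.06. Summed member RNA was 571 and 663 CPM in KO and 750 and 753 CPM in Het with the cluster, and 567 and 658 CPM in KO and 618 and 642 CPM in Het without it. This setting was chosen after seeing the data. The share of cells with 3 or more member UMIs among 1000 was 3.91% and 5.03% in KO and 5.12% and 4.72% in Het, with 95% Clopper-Pearson intervals that overlap and cover counting error only. With 5 or more it was 0.313% and 0.774% in KO and 1.76% and 1.22% in Het, where all 4 intervals also overlap. Endothelial-like cells had 3.33% (6 of 180) at 3 or more, so no order is read from these shares. Without thinning, the shares with 3 or more were 55.6% and 57.4% in KO and 53.2% and 55.5% in Het, at median depths of 5936 and 5292 UMIs per cell in KO and 5178 and 5248 in Het.

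Several measures moved with genotype. Eif2s3y, a Y-linked gene, had 21.6 and 27.4 CPM in KO and 0 UMIs in both Het libraries, and Xist had 1255 and 1247 CPM in KO and 1886 and 2005 CPM in Het. Ddx3y, also Y-linked, had 60 and 77 UMIs in KO and 3 in each Het library. The sex of the cells thus differed with genotype, and the 2 cannot be told apart here. The 8 endothelial markers summed to 67.2 and 73.3 CPM in KO microglia-like cells and 43.9 and 39.9 CPM in Het, with Cldn5, Esam and Slco1a4 at 0 in all 4 libraries. Border-associated macrophage markers summed to 187 and 201 CPM in KO and 175 and 181 CPM in Het. The part of the cells behind these marker sums in the result was not tested. Il1rl1 itself had 6.78 ± 0.853 CPM in KO, against 5.99 ± 0.781 CPM in Het, which was no call. UMIs read at the 3′ end need not cover the deleted part, so this checks nothing about the labels.

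**Figure D3:**
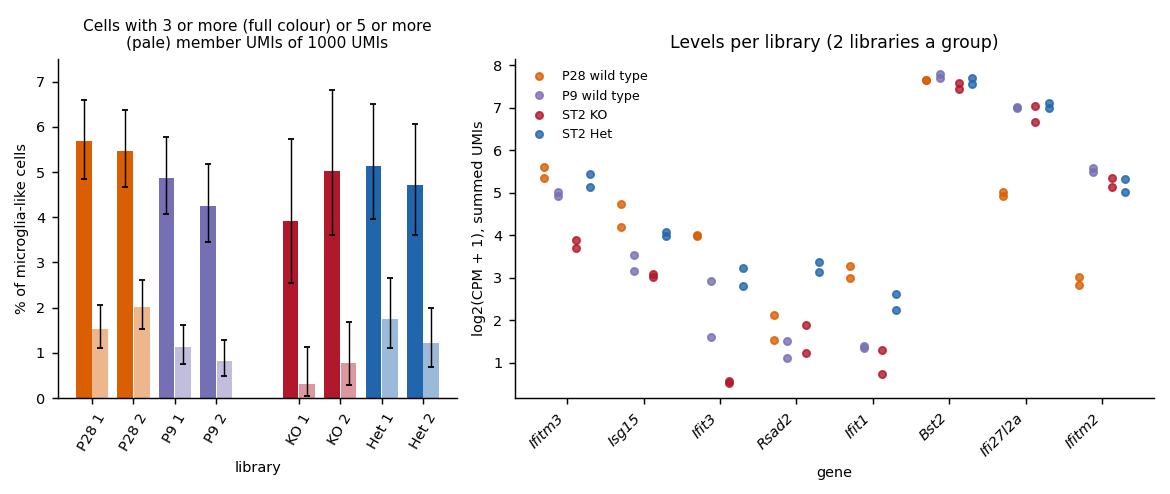
Left, percent of microglia-like cells with 3 or more (full colour) or 5 or more (pale) member UMIs after thinning to 1000 UMIs, per library, with 95% Clopper-Pearson intervals. Right, log2(CPM + 1) of 8 members per library. Ifit3 is low in both KO libraries (0.492 and 0.441 CPM), against 6.02 and 8.39 CPM in Het, and Ifitm2 and Ifi27l2a are lowest at P28.

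Microglia-like cells at P28 had more RNA of most interferon-stimulated genes than those at P9. Of 29 members tested, 18 were called higher, against 27.6% of all 11598 genes, and 2 were called lower, against 26.2% (edgeR quasi-likelihood test). The median member rose by 0.70, beside 0.06 for all genes. Both P28 libraries lay above both P9 libraries for 21 members (41.8% of all genes) and below for 3 (36.4%). Library totals in place of TMM scaling moved the median of all genes to 0.13. Transcription factors and sensors were among the genes called: 3 of 4 factors and 3 of 5 sensors were higher.

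Irf9, the DNA-binding part of ISGF3, had 61.4 and 54.7 CPM at P28 and 31.3 and 28.8 CPM at P9 (0.95 ± 0.11, edgeR adjusted p = 6.81e-06). Parp14, an ADP-ribosyltransferase, had 43.9 and 43.5 CPM at P28 and 17.9 and 21 CPM at P9 (1.17 ± 0.12, edgeR adjusted p = 2.63e-06). Ifit1 had 8.62 and 6.98 CPM at P28 and 1.56 and 1.62 CPM at P9 (2.28 ± 0.30, edgeR adjusted p = 2.44e-05). In each of the 3 genes the P28 libraries lay above the P9 libraries without overlap. Ifi35 had 65.5 and 65.4 CPM at P28 and 46.2 and 44.1 CPM at P9 (0.53 ± 0.07, edgeR adjusted p = 2.46e-05), which is a smaller shift with little spread within each age. Among the other members called higher, Usp18 rose by 2.02, Isg20 by 1.87, Ifit3 by 1.81, Ifih1 by 1.48, Rtp4 by 1.26, Isg15 by 1.19 and Ddx58 by 1.07. Trim30a rose by 0.85, Oasl2 by 0.77, Xaf1 by 0.69, Dhx58 by 0.54, Ifitm3 by 0.53, and Irf1 and Stat2 by 0.50 each. On leaving out 1 of the 4 libraries, Oasl2 and Dhx58 each kept the call in 1 of 4 fits (edgeR adjusted p up to 0.119 and 0.236) and Stat2 in 3 of 4 (up to 0.0574), and DESeq2 called none of these 3 (adjusted p of 0.183, 0.300 and 0.153).

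Ifitm2 and Ifi27l2a went the other way. Ifitm2 had 6.10 and 7.12 CPM at P28 and 43.9 and 47.2 CPM at P9 (-2.78 ± 0.14, edgeR adjusted p = 3.68e-09). Ifi27l2a, which encodes a small membrane protein, had 31.3 and 29.4 CPM at P28 and 128.3 and 127.0 CPM at P9 (-2.07 ± 0.11, edgeR adjusted p = 3.32e-09). The ages did not overlap for either gene. Ifi27l2a was also among the 10 leading genes of a cluster led by cell cycle genes, which held 498 P9 cells and no P28 cell, with 401 CPM there. Without the clusters led by cell cycle genes, 16 members were higher and 2 lower. The 8 border-associated macrophage markers summed to 36.2 and 33.4 CPM in microglia-like cells at P28 and 282 and 290 CPM at P9, and both genes were high in border-associated macrophages, as given above. Other marker lists also moved with age in these cells. The 6 neutrophil markers summed to 90.8 and 55.9 CPM at P28 and 2.09 and 5.70 CPM at P9. The 7 astrocyte markers summed to 183 and 185 CPM at P28 and 37.3 and 37.2 CPM at P9, with Aqp4, Gja1 and Gfap at 0 in both P28 libraries. The 10 microglia markers summed to 28880 and 29080 CPM at P28 and 21540 and 20610 CPM at P9. The part of these in the 18 higher and 2 lower members was not tested.

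Without the cluster led by interferon-stimulated genes, 16 of 26 members tested were higher and 2 lower at P28. Ifit1 then changed by 1.78 (edgeR adjusted p = 0.0159) and Isg15 by 0.89 (0.00118). As for ST2, these values are a description and no test, since the cells left out were grouped by these transcripts. The setting was chosen after seeing the data. All cells kept gave 18 higher and 3 lower. The share of cells with 3 or more member UMIs among 1000 was 5.68% and 5.47% at P28 and 4.86% and 4.25% at P9. Unthinned, it was 24.1% and 22.6% at P28 and 40.8% and 40.8% at P9, at median depths of 2319 and 2244 UMIs per cell at P28 and 3764 and 3998 at P9. The microglia-like class was made of different clusters at the 2 ages: 59.97% of P28 cells were in the cluster led by Ddit4 and Upk1b, and 43.1% of P9 cells in the one led by Vill and Smim10l2a. Il1rl1 averaged 3.68 ± 2.39 CPM at P28 and 6.59 ± 0.617 CPM at P9 (-0.84 ± 0.32, edgeR adjusted p = 0.0427).

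Of 68 further pathway genes tested at P28, 43 were higher and 10 lower, against the same 27.6% and 26.2% of all genes. All 5 receptor genes tested were higher, with Ifnar2 at 192 ± 2.83 CPM at P28 and 125 ± 0.422 CPM at P9. Of 13 sensing genes and kinases tested, 9 were higher and 1 lower. Tmem173 (STING), which signals on cytosolic DNA, had 278 ± 6.05 CPM at P28 and 134 ± 3.23 CPM at P9 (1.06 ± 0.07). Tlr3, the endosomal receptor for viral RNA, had 23.6 ± 1.02 CPM at P28 and 8.05 ± 0.211 CPM at P9 (1.55 ± 0.14). Irf8, a factor of myeloid identity, had 648 ± 6.49 CPM at P28 and 364 ± 12.9 CPM at P9. Ccl12, a chemokine, fell to 135 ± 5.16 CPM at P28, against 299 ± 12.8 CPM at P9 (SD, n = 2 each for these genes).

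Tau-GFP plus microglia, sorted as those holding GFP made by neurons, had more RNA of 8 members and less of 5 than Tau-GFP negative microglia, of 33 tested. These calls stand against 20.7% of 12138 genes called higher and 16.9% called lower (edgeR quasi-likelihood test). The member counts are near these shares, so the counts by themselves do not set the members apart from other genes. The median member changed by 0.18, beside 0.01 for all genes. All 8 plus libraries lay above all 8 negative ones for 5 members, against 6.82% of all genes, and below them for 0 (4.46%). The genes that rose were 3 of 5 factors of membranes and trapping (Ifitm2, Ifitm3, Bst2), of which 1, Mx2, fell, and 3 of 5 OAS genes, with Ifi27l2a and Cmpk2.

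Ifitm2 had 32.4, 47.5 and 98.3 CPM (lowest, median, highest) in plus libraries, against 5.37, 7.66 and 9.38 CPM in negative libraries (2.82 ± 0.21, edgeR adjusted p = 3.89e-08). Ifitm3 had 33.9, 50.6 and 139.2 CPM in plus libraries, against 10.8, 18.5 and 26.7 CPM in negative libraries (1.72 ± 0.28, edgeR adjusted p = 9.21e-05). Bst2 had 83.9, 95 and 121.9 CPM in plus libraries, against 55.7, 63.8 and 70.6 CPM in negative libraries (0.62 ± 0.08, edgeR adjusted p = 5.56e-06). For these 3 membrane proteins no plus library reached down into the negative range. Ifi27l2a had 42.2, 58.5 and 86.0 CPM in plus libraries, against 22.4, 31.9 and 33.5 CPM in negative libraries (0.98 ± 0.12, edgeR adjusted p = 6.64e-06). Oas2 had 10.1, 17.8 and 33.3 CPM in plus libraries, against 1.16, 4.80 and 9.37 CPM in negative libraries (1.82 ± 0.31, edgeR adjusted p = 0.000155). Both genes also showed no overlap. Oasl2, an OAS-like protein, had 10.9, 21.6 and 32.1 CPM in plus libraries, against 6.42, 10.8 and 12.8 CPM in negative libraries (1.03 ± 0.19, edgeR adjusted p = 0.000376), with ranges that overlapped. Oas1a rose by 0.64 and Cmpk2 by 1.45.

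Irf1 and Irf9, regulators of the pathway, were lower in plus libraries. Irf1 averaged 55.1 ± 6.70 CPM in plus and 71.9 ± 6.22 CPM in negative libraries (SD, n = 8 each; -0.38 ± 0.08, edgeR adjusted p = 0.000805). Irf9 averaged 71.7 ± 6.78 CPM in plus and 87.1 ± 8.71 CPM in negative libraries (-0.28 ± 0.07, edgeR adjusted p = 0.00465). Ifi35 fell by 0.27, Mx2 by 0.75 and Eif2ak2 by 0.22. The IFIT genes and Isg15 missed the threshold, with Isg15 at 4.80 ± 1.98 CPM in plus and 4.33 ± 0.598 CPM in negative libraries. Cmpk2 was lost without any one of 8 libraries and Eif2ak2 without any one of 10, and Mx2 without Tau-GFP negative replicate 1 (edgeR adjusted p = 0.0524). Without that library 3 members were lower. With library totals Eif2ak2 changed by -0.17 (edgeR adjusted p = 0.114).

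Of 72 pathway genes tested, 8 were higher and 22 lower in plus libraries, where 20.7% of all genes were higher and 16.9% lower. The sensing genes and kinases fell in 8 of 13 cases. Tmem173 had 188 ± 29.8 CPM in plus and 357 ± 36.1 CPM in negative libraries (-0.92 ± 0.09), and Mb21d1 (cGAS), the DNA sensor upstream of it, 21.2 ± 5.04 and 34.4 ± 3.11 CPM in the same order. Ifngr1, a chain of the interferon gamma receptor, had 915 ± 106 CPM in plus and 1371 ± 134 CPM in negative libraries (-0.58 ± 0.07). Ifi203 had 13.2 ± 4.49 CPM in plus and 1.67 ± 0.941 CPM in negative libraries, and Ifi204, of the same family of nucleic acid binding proteins, 43.8 ± 15.8 and 13 ± 5.56 CPM in the same order. Il1rl1 averaged 13.3 ± 2.28 CPM in plus and 15.7 ± 4.03 CPM in negative libraries and was not called.

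Marker sums moved with the sort. The 8 border-associated macrophage markers summed to 2376, 2925 and 6644 CPM (lowest, median, highest) in plus libraries and 411, 454 and 635 CPM in negative libraries. The 10 microglia markers summed to 18119, 25526 and 29005 CPM in plus and 38290, 40482 and 46259 CPM in negative libraries. The 8 neuron markers summed to 79.2, 140 and 167 CPM in plus and 2.48, 6.55 and 14.1 CPM in negative libraries, and the 8 endothelial markers to 50.3, 168 and 2455 CPM in plus and 62.6, 69.7 and 356 CPM in negative libraries. None of the markers of these 4 lists was at 0 in all libraries. The 6 mural markers summed to 39.3, 134 and 265 CPM in plus and 5.43, 8.38 and 32.0 CPM in negative libraries. The 6 oligodendrocyte precursor markers summed to 11.9, 16.3 and 27.9 CPM in plus and 0.276, 1.01 and 3.70 CPM in negative libraries. The part of these cells in the result was not tested. In single cells, Ifitm2, Ifitm3, Ifi27l2a and Bst2 had the higher levels in border-associated macrophages given above, and Oas2 had 12.8 ± 8.72 CPM there and 0.577 ± 0.385 CPM in microglia-like cells.

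**Figure D4:**
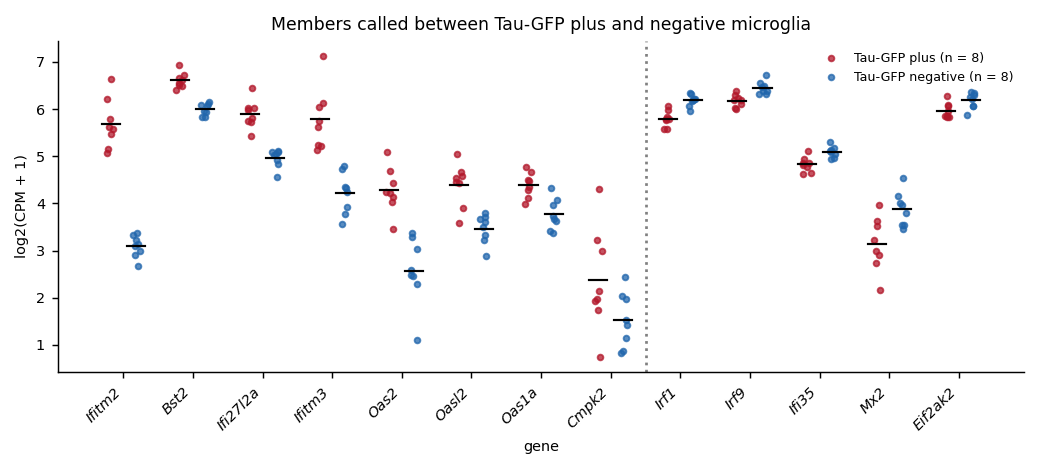
Members called between Tau-GFP plus and Tau-GFP negative microglia, as log2(CPM + 1) per library (points, n = 8 each) with group means (bars). The 8 members left of the dotted line were higher in plus libraries and the 5 right of it lower. Ifitm2 is the most separated, with 32.4 to 98.3 CPM in plus libraries and 5.37 to 9.38 CPM in negative libraries.

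TMRM high microglia, sorted for strong mitochondrial dye, had more RNA of 10 members and less of 5 than TMRM low microglia, of 31 tested. Of 10714 genes tested, 20.4% were called higher and 9.84% lower (limma on log2(FPKM + 1), the scale of all fold changes here, which understates those of low genes). The median member changed by 0.07, beside 0.06 for all genes. The ranges of all TMRM high and all TMRM low libraries separated for 3 members, Ifit1, Ifih1 and Irf1, against 5.17% of all genes. Quantile normalization gave 7 members higher and 5 lower, with 1426 genes higher and 1375 lower, against 2189 and 1054 without it.

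Irf1, a factor induced by interferon gamma and by NF-kB, had 87.6, 99.3 and 110.3 FPKM (lowest, median, highest) in TMRM high libraries, against 54.4, 68.6 and 73.8 FPKM in TMRM low libraries (0.62 ± 0.07, limma adjusted p = 2.13e-06). Isg15 had 10.3, 25.3 and 36.0 FPKM in TMRM high libraries, against 3.74, 6.85 and 11.4 FPKM in TMRM low libraries (1.68 ± 0.21, limma adjusted p = 3.41e-06). Oasl1, a brake on Irf7 translation, had 7.61, 10.6 and 16.3 FPKM in TMRM high libraries, against 0.687, 3.29 and 8.31 FPKM in TMRM low libraries (1.70 ± 0.27, limma adjusted p = 6.59e-05). Isg15 and Oasl1 overlapped between the groups and Irf1 did not. Ifit1 averaged 4.91 ± 1.58 FPKM in TMRM high (n = 10) and 0.594 ± 0.395 FPKM in TMRM low libraries (n = 8; 1.88 ± 0.18, limma adjusted p = 1.38e-07), and 1 TMRM low library was listed at 0. Ifih1 averaged 4.80 ± 0.606 FPKM in TMRM high and 1.56 ± 0.618 FPKM in TMRM low libraries (1.21 ± 0.12, limma adjusted p = 3.17e-07). Ifit2 rose by 0.83, Rsad2 by 0.71, Ifitm2 by 0.58, Oas1a by 0.40 and Ifi27l2a by 0.34. On leaving out 1 library at a time, Oas1a kept its call in 14 of 18 fits (limma adjusted p up to 0.0645) and Ifi27l2a in 5 of 18 (up to 0.0946). With quantile normalization Ifi27l2a, Ifitm2 and Oas1a were not called (limma adjusted p of 0.692, 0.108 and 0.0502).

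Irf7, the factor that amplifies interferon genes, had 2.07, 3.97 and 4.93 FPKM in TMRM high libraries, against 3.33, 5.65 and 8.27 FPKM in TMRM low libraries (-0.47 ± 0.15, limma adjusted p = 0.0214). Irf9 had 14, 17.7 and 22.8 FPKM in TMRM high libraries, against 19.7, 22.1 and 26.5 FPKM in TMRM low libraries (-0.29 ± 0.09, limma adjusted p = 0.0234). Mx2 had 2.33, 4.55 and 5.40 FPKM in TMRM high libraries, against 4.01, 6.10 and 9.43 FPKM in TMRM low libraries (-0.44 ± 0.14, limma adjusted p = 0.0189). All 3 overlapped between the groups. Mx1 fell by 0.45 and Oas2 by 0.37, and Oas2 kept its call in 9 of 18 fits that left out 1 library (limma adjusted p up to 0.0980), and Irf9 in 17 of 18 (up to 0.0520). Ifitm3 averaged 31.7 ± 6.09 FPKM in TMRM high and 50.5 ± 24.1 FPKM in TMRM low libraries and missed the threshold (limma adjusted p = 0.0746). Without TMRM low replicate 7, 3 members were lower.

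Of 67 pathway genes tested, 14 were higher and 7 lower, shares near the 20.4% and 9.84% of all genes. Ifnb1, interferon beta itself, averaged 43.9 ± 9.56 FPKM in TMRM high and 3.97 ± 4.13 FPKM in TMRM low libraries (3.61 ± 0.39, limma adjusted p = 7.11e-07). Cxcl10 averaged 342 ± 71.8 FPKM in TMRM high and 53.8 ± 12.4 FPKM in TMRM low libraries (2.65 ± 0.15), and Ccl5, another chemokine induced by interferon and NF-kB, 54.2 ± 17.8 and 2.46 ± 1.93 FPKM in the same order. None of these 3 genes overlapped between the groups. Tmem173 averaged 43.5 ± 3.05 FPKM in TMRM high and 69.5 ± 3.8 FPKM in TMRM low libraries (-0.67 ± 0.05). Il1rl1 averaged 1.38 ± 0.391 FPKM in TMRM high and 1.73 ± 0.561 FPKM in TMRM low libraries and was not called.

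Marker sums differed here too. The 5 neutrophil markers measured summed to 0.184, 128 and 752 FPKM (lowest, median, highest) in TMRM high and 606, 1021 and 2261 FPKM in TMRM low libraries. The 5 monocyte markers measured summed to 3.58, 10.5 and 16.4 FPKM in TMRM high and 15.2, 46.9 and 61.0 FPKM in TMRM low libraries, and the 8 border-associated macrophage markers to 121, 152 and 212 FPKM in TMRM high and 52.3, 88.3 and 136 FPKM in TMRM low libraries. The 6 dendritic cell markers summed to 8.21, 14 and 20.1 FPKM in TMRM high and 3.26, 5.17 and 8.80 FPKM in TMRM low libraries. The 10 microglia markers summed to 8272, 8804 and 9418 FPKM in TMRM high and 8266, 9659 and 9953 FPKM in TMRM low libraries. The 8 neuron markers summed to 1.52, 2.27 and 4.32 FPKM in TMRM high and 8.77, 15.2 and 51.2 FPKM in TMRM low libraries. For 20 cell cycle genes the sums were 831, 866 and 962 FPKM in TMRM high and 502, 558 and 652 FPKM in TMRM low libraries. These last 2 sums did not overlap between the groups. The 4 choroid plexus markers summed to 30.5, 49.8 and 117 FPKM in TMRM high and 116, 235 and 34014 FPKM in TMRM low libraries, where replicate 2 stood highest. Without that library 9 members were higher and 5 lower. The part of the other cell types and of the cell cycle in the result was not tested.

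**Figure D5:**
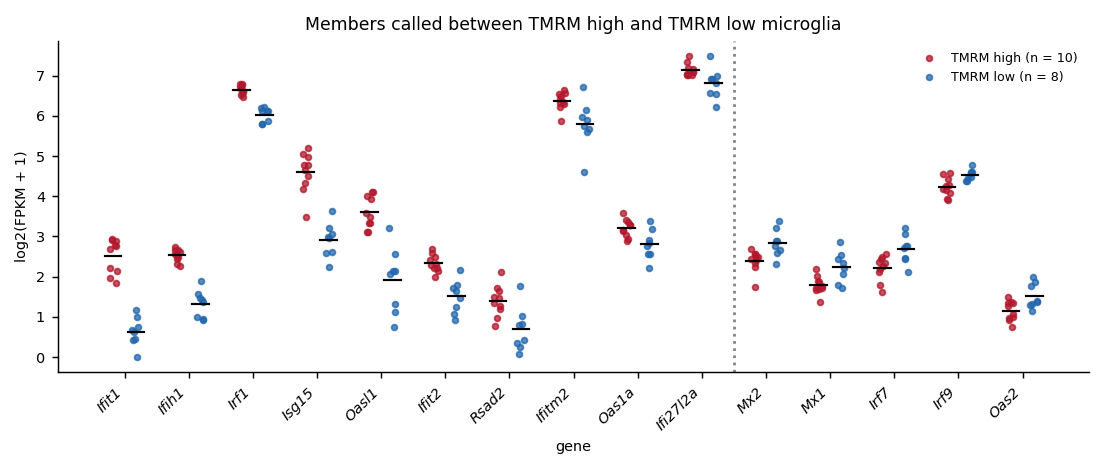
Members called between TMRM high (n = 10) and TMRM low (n = 8) microglia, as log2(FPKM + 1) per library (points) with group means (bars). The 10 members left of the dotted line were higher in TMRM high libraries and the 5 right of it lower. Irf1 separates fully, with 87.6 to 110.3 FPKM in TMRM high and 54.4 to 73.8 FPKM in TMRM low libraries.

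IL-33 for 3 h called none of the 33 members tested in cultured microglia, in either direction, where 4.22% of 10815 genes were called higher and 3.54% lower (edgeR quasi-likelihood test). DESeq2 also called 0. The median member changed by 0.04, beside -0.01 for all genes, and the ranges separated for no member, against 2.15% of genes above and 1.4% below. At an unadjusted p of 0.05, 3 members were higher, Ifit3, Ifit2 and Trim30a, and 0 were lower. Of all 10815 genes, 2033 passed that p in either direction, so the 3 are not read as a trait of the list. Ifit3 had 6.95, 11.9 and 31.4 CPM (lowest, median, highest) in IL-33 cultures, against 6.07, 8.24 and 17.6 CPM in medium (0.81 ± 0.28, edgeR adjusted p = 0.0948). Ifit2 had 4.43, 10.7 and 24.9 CPM in IL-33 cultures, against 4.17, 5.49 and 16.9 CPM in medium (0.84 ± 0.34, edgeR adjusted p = 0.167). Both overlapped widely between the groups. Without IL-33 replicate 3, 1 member was called higher, and without medium replicate 2, both IFIT genes were.

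The 10 microglia markers summed to 4869, 5400 and 6041 CPM (lowest, median, highest) in IL-33 cultures and 6037, 6356 and 6572 CPM in medium. Ifitm3, Bst2, Irf1 and Irf7 differed by less than the spread between cultures. Ifitm3 had 436 ± 82.1 CPM in IL-33 cultures, against 430 ± 28.6 CPM in medium, Bst2 141 ± 6.36 and 140 ± 17.5 CPM, Irf1 33.3 ± 3.17 and 32.9 ± 4.22 CPM, and Irf7 38 ± 6.54 and 41.4 ± 8.77 CPM in the same order (SD, n = 7 each). Trim30a averaged 106 ± 6.0 CPM in IL-33 cultures, against 97.0 ± 7.25 CPM in medium, with ranges that overlapped (0.12 ± 0.05, edgeR adjusted p = 0.208). Of 69 pathway genes tested, 12 rose and 2 fell, beside 4.22% and 3.54% of all genes. Ikbke, a kinase that acts on IRF3, had 129 ± 7.59 CPM in IL-33 cultures, against 70.7 ± 9.57 CPM in medium (0.86 ± 0.07, edgeR adjusted p = 8.84e-08). Socs3, a brake on cytokine receptors, had 18.5 ± 1.39 CPM in IL-33 cultures, against 6.95 ± 3.47 CPM in medium (1.40 ± 0.22, edgeR adjusted p = 0.000226). Tlr7 fell by 0.25 and Irf8 fell by 0.25. No interferon gene was expressed highly enough to be tested in this comparison. Il1rl1 had 0.713 ± 0.516 CPM in IL-33 cultures, against 0.438 ± 0.327 CPM in medium, and was too low to be tested.

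Cultured microglia in medium and freshly sorted Tau-GFP negative microglia come from 1 count table and were set side by side on a common scale, as a description. All medium libraries lay above all Tau-GFP negative ones for 21 of the 34 members, against 24.7% of 12748 genes, and below for 3 (Eif2ak2, Irf1 and Mx2), against 24.4%. The median log2 ratio was 1.02 over members and -0.09 over all genes. On this scale Ifitm3 averaged 503 ± 33.9 CPM in medium and 16 ± 5.0 CPM in Tau-GFP negative cells, a ratio of 31.5, and Ifitm2 had a ratio of 21.1. Oasl2 had a ratio of 12.9, Oas1a 10.5 and Oas3 7.81. The 8 border-associated macrophage markers had a median sum of 1772 CPM in medium and 454 CPM in Tau-GFP negative cells, and the 10 microglia markers one of 6356 CPM in medium and 40482 CPM in Tau-GFP negative cells. Their part was not tested. Culture, age, strain, genotype and sort differ between these groups and cannot be told apart.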

How the data were processed

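The 34 members and the 90 pathway genes set beside them were chosen with earlier results of these data known, and the members were matched by symbol. The deposited bulk table holds expected counts from RSEM with Bowtie2 on mm10, per the submitters' processing notes. The deposited FPKM values of the TMRM libraries come from TopHat2 2.0.10 and Cufflinks 2.0.2, and the deposited single-cell matrix holds UMI counts from Cell Ranger, per the same notes. One deposited TMRM high file ends early and lacks no member, and 5 columns of the count table matched no sample and were not used. Of the expected counts 25.3% were not whole, and all were rounded. Library totals of bulk counts ran from 7709047 to 11826389.

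Counts were tested with edgeR 4.0.16 (quasi-likelihood, TMM scaling, filterByExpr, Benjamini-Hochberg adjustment over all genes, adjusted p 0.05), FPKM with limma 3.58.1 on log2(FPKM + 1) where a gene's mean over the libraries reached 1 FPKM. The standard error of an edgeR fold change was taken from its F statistic. A barcode was kept from 500 detected genes upward if mitochondrial genes gave under 10% of its UMIs (15335 of 15507 barcodes; for P28 and P9, 11276 of 11424, where the study states 9391 cells), and clustered with scanpy 1.11.5 (2000 variable genes, 30 components, 15 neighbours, Leiden resolution 1). Clusters were named from marker lists, no doublets were called, and names may differ from the study's. UMI counts were summed per library over microglia-like cells and all 8 libraries shared 1 fit. DESeq2 1.42.0 and the other settings are in the closing part. Scripts were tested on simulated data. Values per library are printed for up to 6 members per comparison by smallest adjusted p with a mean of at least 5 CPM or FPKM, otherwise for the 2 with the smallest p. Pathway genes are named from those called, up to 8 by smallest adjusted p. Date-like symbols (27) made up 0.134% of bulk counts and stayed in library totals.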

Additional observations from a re-analysis of the deposited data

Results flagged for a closer look

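Of 56 groups of 4 to 10 libraries of called members, 3 held a library far from the others, and chance gives about 1 in 20. Ifitm3 in Tau-GFP plus replicate 3 was 139.2 CPM, where the other plus libraries ran from 33.9 to 69.1 CPM. Cmpk2 in Tau-GFP plus replicate 7 was 18.9 CPM, where the others ran from 0.672 to 8.41 CPM, and without that library its fold change was 0.89 (edgeR adjusted p = 0.150), against 1.45 with it. Rsad2 in TMRM low replicate 1 was 2.43 FPKM, where the others ran from 0.0526 to 1.02 FPKM.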

How the results depend on the processing

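Counts of members called stayed within 1.5 times in the settings run, with these exceptions. For ST2 KO against Het, lower calls went to 9 with no low-count filter, 8 with the replicate block, 5 without clusters led by cell cycle genes and 0 without the cluster led by interferon-stimulated genes, against 3, and leaving out 1 library gave 1 to 3. Without that last cluster Rsad2 reversed to 0.44, a setting chosen after seeing the data. For TMRM, lower calls were 3 with the replicate block, against 5, and 3 to 6 on leaving out 1 library. For Tau-GFP, lower calls ran from 3 to 6 and for IL-33 higher calls from 0 to 2 on leaving out 1 library. The replicate block gave 7 higher in TMRM, 7 higher and 6 lower in Tau-GFP, and 19 higher and 2 lower at P28. Replicate numbers were not taken to pair the libraries, since no label says that a number marks a shared source and in no comparison with 3 or more pairs did every pair's correlation of deviations pass 0.1. The correlations ran from -0.07 to 0.39 (IL-33), -0.15 to 0.48 (Tau-GFP) and -0.19 to 0.16 (TMRM), and were -0.02 (P28, P9) and 0.15 (ST2). As a hint from the data, 4 of 8 Tau-GFP pairs matched best with their own number, 2 of 7 in IL-33 and 2 of 8 in TMRM. Of 51 single-member fold changes 14 lost the threshold in some setting. The cause was not tested.

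Among all genes, ST2 calls were 36 higher and 34 lower, and 257 and 110 with no low-count filter, 258 and 85 with the replicate block, 23 and 21 over all cells kept. P28 calls were 3196 and 3033, and 1790 and 2402 with DESeq2.

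The share of cells with member UMIs moved with its threshold and depth. With 2 or more UMIs of 1000 it was 15.3% and 15.8% (P28), 14.2% and 13.6% (P9), 13.3% and 15.7% (KO), 15.4% and 15.5% (Het). With 5 or more it was 1.53% and 2.02%, 1.14% and 0.813%, 0.313% and 0.774%, and 1.76% and 1.22%, in the same order. Thinned to 2000 UMIs with 3 or more, it was 17% and 17.3%, 15.3% and 15.3%, 13% and 15.8%, and 16.8% and 16.4%.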
